A study of Homo sapiens with 4 samples.

Results

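The enzymes that make serine and glycine and pass carbon from them to folate were followed as 10 genes, PHGDH, PSAT1, PSPH, SHMT1, SHMT2, MTHFD1, MTHFD2, MTHFD1L, AMT and GLDC, out of 19775 genes on the array. All probe sets that carry only 1 of these symbols were taken, 19 of the 24 that carry a member symbol at all. The other 5, also annotated to further genes, were left out. PSAT1 was chosen because its signal was lower with p53 shRNA and higher with Pontin siRNA, and AMT because its signal was higher with Pontin siRNA, so their values in those comparisons are descriptions. The remaining members were chosen for their place in the pathway.

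All 4 groups were cultures of SK-BR-3, a long-established human breast tumour line that is HER2-amplified and carries a missense-mutant p53, with 1 Affymetrix array per group. The control group carried control shRNA, which the protocol calls an empty vector. The second group carried p53 shRNA, the third had siRNA against Pontin in control shRNA cells, and the fourth had both p53 shRNA and Pontin siRNA. All cells had been selected with puromycin, harvest was 24 h after the siRNA, and the first and second groups are titled sicon, which the labels leave unexplained. The labels do not say whether the shRNA cells were clones or pools, or whether the siRNA arms came from separate selections.

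Serine synthesis branches from glycolysis. PHGDH oxidises a glycolytic intermediate, PSAT1 transfers an amino group to it from glutamate, and PSPH removes the phosphate to give serine. SHMT1 in the cytosol and SHMT2 in mitochondria convert serine to glycine and load a carbon unit on folate, the MTHFD enzymes interconvert the loaded folates and release formate, and the glycine cleavage system, which contains GLDC and AMT, breaks glycine down to feed the same folate pool. Cancer cells draw on this pathway for nucleotides and redox balance, PHGDH is amplified in a share of breast tumours, and several of the genes are transcriptional targets of the stress factor ATF4.

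RUVBL1, which encodes Pontin, had signals of 477.7 with control shRNA and 398.2 with p53 shRNA, and of 127.4 and 65.8 where Pontin siRNA was added to each. Its log2 ratio with p53 shRNA was -0.26 without Pontin siRNA and -0.95 with it. The 2 arrays with Pontin siRNA thus shared that treatment but not the same RUVBL1 signal, and the part this had in other ratios was not tested. The p53 transcript itself is not reported here. Of 9 markers of luminal HER2 breast cancer, 8 were measured above the filter on signal, with the splicing factor gene ESRP1 called lower with Pontin siRNA at -0.81 and -1.23, while the E-cadherin gene CDH1 lay between 1.8 and 13.0. Of 11 markers of other cell types 3 passed that filter, COL1A1 with 152.9 to 175.9 and KRT5 and PECAM1 with at most 28.0 and 40.7. The array with both knockdowns had a median signal of 19.6, against 15.9 to 16.5 on the other arrays, and all 18 of its hybridization control probe sets were above those of the control array, 1.42-fold on average.

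Because groups had 1 array each, differences are judged by their size in the 2 matched pairs that each knockdown offers, and p-values appear only for an additive fit run as an alternative. A call needed both of its log2 signal ratios to share a sign and reach 1.5-fold, 0.58 in log2. Each gene was read from its brightest probe set. The 12066 genes with a mean signal of at least 15.3, the median of all probe sets, were kept, and the 7744 genes at or above 110.3, the 75th percentile, are called bright. Of the 10 members 8 were kept and 7 were bright. SHMT1 and MTHFD1L fell short on the probe sets that name them alone, with signals from 4.5 to 17.2 for SHMT1 and from 1.4 to 14.2 for MTHFD1L.

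The stretches before the starts of PSAT1, GLDC and MTHFD2 are shown first, because these genes gave the call, the near call and the smallest difference with p53 shRNA. Each is the 250 bases upstream of the start in RefSeq, build GRCh38.p14, at chr9:78296875-78297124 on the + strand, chr9:6645730-6645979 on the - strand and chr2:74198365-74198614 on the + strand. Capitals mark CCAAT on either strand (ATTGG when read from the other strand), the box bound by the factor NF-Y. This motif was chosen after the sequences were seen.
PSAT1: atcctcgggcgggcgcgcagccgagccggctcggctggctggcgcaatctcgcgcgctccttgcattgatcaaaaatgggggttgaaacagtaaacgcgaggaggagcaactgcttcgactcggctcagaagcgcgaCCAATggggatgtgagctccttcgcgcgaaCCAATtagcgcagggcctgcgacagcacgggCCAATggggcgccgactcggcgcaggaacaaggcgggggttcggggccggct
GLDC: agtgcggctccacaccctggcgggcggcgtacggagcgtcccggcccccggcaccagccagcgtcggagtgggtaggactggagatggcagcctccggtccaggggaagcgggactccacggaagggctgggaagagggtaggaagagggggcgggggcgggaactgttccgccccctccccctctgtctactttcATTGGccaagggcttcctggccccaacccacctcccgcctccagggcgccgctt
MTHFD2: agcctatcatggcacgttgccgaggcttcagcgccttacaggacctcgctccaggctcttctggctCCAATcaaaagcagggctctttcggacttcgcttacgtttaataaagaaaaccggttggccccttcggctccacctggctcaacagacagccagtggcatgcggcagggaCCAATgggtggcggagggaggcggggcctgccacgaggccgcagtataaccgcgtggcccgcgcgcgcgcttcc

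PSAT1 held 3 CCAAT boxes, 113, 83 and 52 bases before its start, GLDC held 1 on the opposite strand, and MTHFD2 held 2. Of the 10 members 8 had at least 1 window in the RefSeq table, which lists several starts for MTHFD1L. At least 1 CCAAT was present for all 8 of them, in 10 of their 11 windows. The MTHFD1L matches were the same box in overlapping windows, so these 10 windows do not hold separate boxes. The share with a CCAAT was 32.0% of all 35116 windows of this length and 32.7% of the 22199 windows of protein-coding genes. Because the motif was chosen after the sequences were seen, the member counts are descriptions. At least 3 were present in 2.93% of all windows. The box was thus found both before PSAT1, which was called, and before members that were not. The core of the element that ATF4 binds with C/EBP partners, searched as TGATGNAA on both strands, was found in 3.14% of all windows and for MTHFD1L alone among the 8, in 2 overlapping windows of its start. These letters were absent from the PSAT1 window shown.

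PSAT1 was chosen for its differences in both contrasts, so the values below describe that choice. Its brightest probe set read 709.3 on the control array, 375.0 after p53 shRNA, 1087.4 after Pontin siRNA and 699.0 after both. The lowest value was therefore on the array with p53 shRNA alone and the highest on the array with Pontin siRNA alone, 2.90-fold apart, and the control and both-knockdown arrays lay 1.01-fold apart. With p53 shRNA PSAT1 fell 1.89-fold without Pontin siRNA and 1.56-fold with it, and with Pontin siRNA it rose 1.53-fold beside control shRNA and 1.86-fold beside p53 shRNA.

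A second PSAT1 probe set read 84.7, 48.3, 138.4 and 88.5 in the same order of groups. Its log2 ratios with p53 shRNA were -0.81 and -0.65, and with Pontin siRNA 0.71 and 0.87. The rule took in all probe sets of PSAT1 and the arrays were the same, so these values are descriptions too. Both probe sets were lowest with p53 shRNA alone and highest with Pontin siRNA alone, while the control and both-knockdown arrays, close together on each, changed places. Both are of the type marked as able to match several transcripts, so an alternative without such probe sets left no value for PSAT1. The log2 signal with both knockdowns differed from the sum of the single effects by 0.28 on the brighter and 0.17 on the dimmer probe set.

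**Figure D1:**
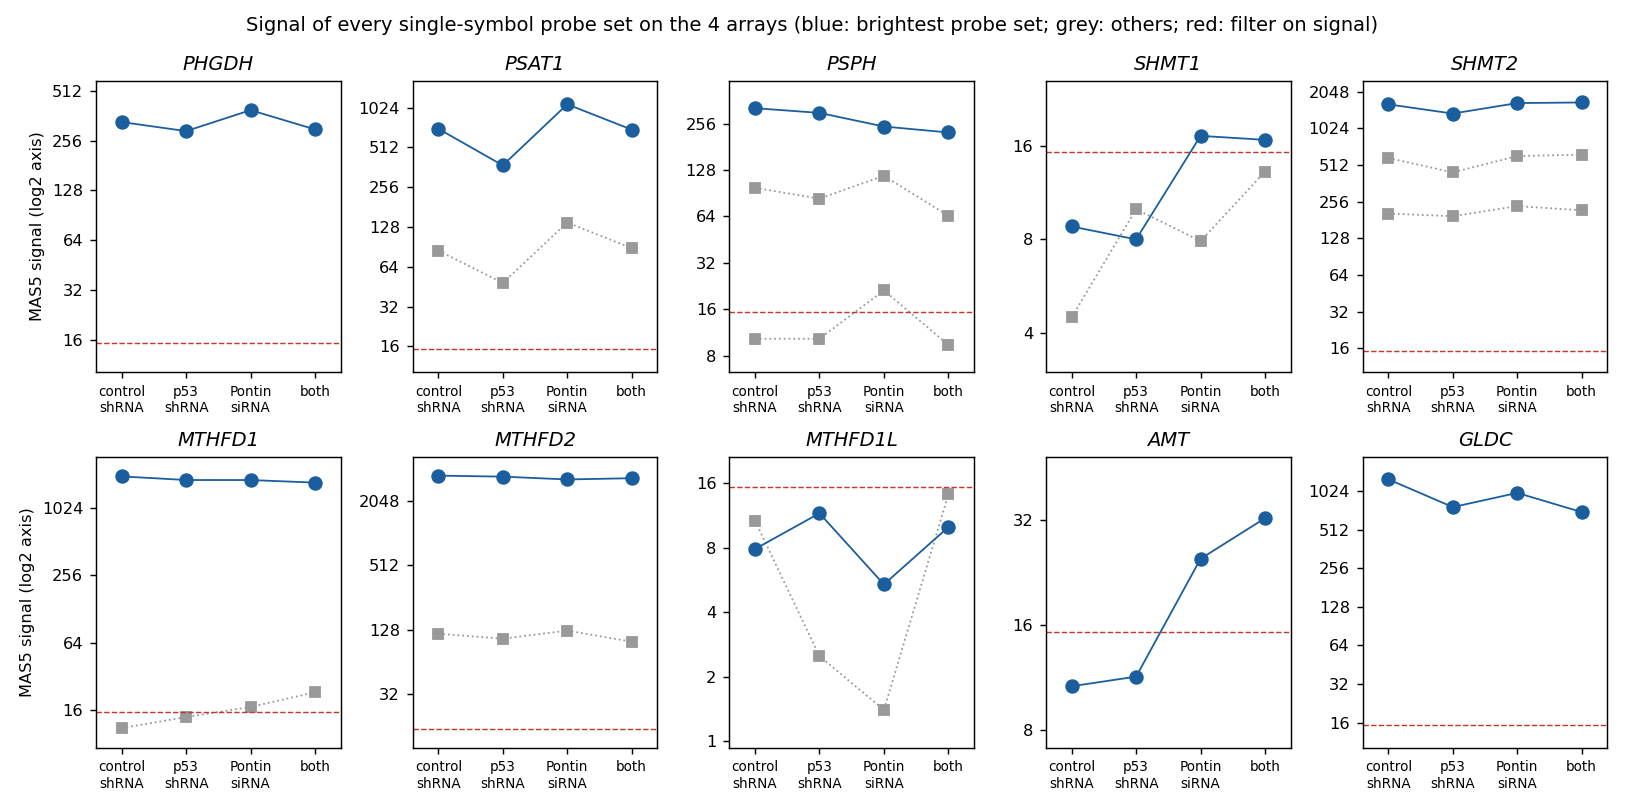
MAS5 signal, on a log2 axis with its own range in each panel, of every probe set that names 1 member alone, on the 4 arrays; blue points are the brightest probe set, grey squares the others, and the red line is the filter at 15.3. Both PSAT1 probe sets dip with p53 shRNA and peak with Pontin siRNA, while SHMT1 and MTHFD1L lie around or under the filter. Lines join the arrays of 1 probe set and carry no order in time.

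The enzymes on each side of PSAT1 in serine synthesis did not reach the call. PHGDH, which opens the pathway, had signals of 331.4 in the control, 292.2 after p53 shRNA, 391.1 after Pontin siRNA and 299.2 after both. The 2 arrays with p53 shRNA were thus the lower 2 and the Pontin siRNA array the highest. Its log2 ratios were -0.18 and -0.39 for p53 shRNA and 0.24 and 0.03 for Pontin siRNA, the same signs as PSAT1 at a smaller size. Among bright genes 7.21% had both p53 ratios at or below -0.18, so a difference of this size was common on these arrays.

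PSPH, the phosphatase that completes serine synthesis, had signals of 322.4, 300.5, 245.2 and 224.3 in the order control shRNA, p53 shRNA, Pontin siRNA and both. On this probe set, the brightest, the 2 arrays with Pontin siRNA were the lower 2, the opposite side from PSAT1. Its Pontin log2 ratios were -0.39 and -0.42 and its p53 ratios -0.10 and -0.13. Among bright genes, 232 had both Pontin ratios at or below -0.39. A dimmer PSPH probe set, with signals of 98.1, 83.5, 117.5 and 64.6, gave Pontin ratios of 0.26 and -0.37 and p53 ratios of -0.23 and -0.86. The dimmest, at 9.4 to 21.2 and below the filter on its mean, gave Pontin ratios of 1.04 and -0.13. The probe sets of PSPH thus disagreed in control shRNA cells. With the mean over probe sets, the mean Pontin ratio of PSPH was -0.0029 instead of -0.41. The mean p53 ratio was then -0.42 instead of -0.12.

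GLDC, the glycine decarboxylase that starts glycine cleavage, came closest to a call without reaching it. Its signals were 1263.7 in the control, 767.7 after p53 shRNA, 990.3 after Pontin siRNA and 701.8 after both. Both arrays with p53 shRNA lay below both arrays without it. The p53 log2 ratios were -0.72 and -0.50, 1.65-fold and 1.41-fold, the second just outside the 1.5-fold rule that PSAT1 met with -0.92 and -0.64. The pair without Pontin siRNA passed 1.5-fold by itself, but the rule needs both pairs. Reading that pair alone was decided after seeing the data, and the share of all genes that pass on it was not computed. Among bright genes, 51 or 0.659% were at or below -0.50 in both p53 pairs.

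With Pontin siRNA GLDC stood at -0.35 and -0.13, the other sign from PSAT1. Cells with both knockdowns therefore had 1.80-fold less GLDC signal than the control, a log2 difference of -0.85, where PSAT1 was at -0.02. GLDC had a single probe set, and its ratios moved by at most 0.03 under every scaling tried.

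AMT, the aminomethyltransferase of the same glycine cleavage system, was called higher with Pontin siRNA, from signals near the filter. It read 10.7 in the control, 11.4 after p53 shRNA, 24.8 after Pontin siRNA and 32.4 after both. Both arrays with Pontin siRNA lay above both arrays without it, 2.32-fold and 2.84-fold, or 1.21 and 1.51 in log2, while the p53 ratios were 0.09 and 0.39. AMT was chosen for this rise. It is the only member kept that is not bright, and its single probe set lay below the filter value of 15.3 on the 2 arrays without Pontin siRNA. AMT was thus kept only through the arrays with Pontin siRNA, where it was high. With 16 added to every signal the ratios were 0.61 and 0.82. The median Pontin ratio of the genes below the bright limit was 0.04 with control shRNA and 0.07 with p53 shRNA. The part that the higher low-end signals of the array with both knockdowns had in the second ratio was not tested. The first ratio rests on 1 array on each side, with signals of 10.7 and 24.8. The scalings tried moved a pair ratio of AMT by up to 0.27.

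The other subunits of glycine cleavage were read from the related lists. GCSH, the carrier protein of the system, lay between 3026 and 3151 on the 4 arrays, and DLD, its dihydrolipoamide dehydrogenase, between 3258 and 3759, with all ratios from -0.19 to 0.00.

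SHMT2, the mitochondrial serine hydroxymethyltransferase, had signals of 1610.5, 1353.4, 1650.5 and 1668.9 in the order control shRNA, p53 shRNA, Pontin siRNA and both. The array with p53 shRNA alone was the lowest, and the other 3 lay close together. The p53 log2 ratios were -0.25 without and 0.02 with Pontin siRNA, and the Pontin ratios 0.04 and 0.30. A second probe set repeated this order of size with 583.9, 445.0, 606.0 and 622.6, and the other read 204.3, 194.4, 235.1 and 217.4, with p53 ratios of -0.07 and -0.11. The lower signal with p53 shRNA alone was therefore seen clearly on 2 of 3 probe sets.

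MTHFD1, the cytosolic enzyme that interconverts loaded folates, had signals of 1971.0, 1829.3, 1828.1 and 1734.7, in the same order. Every ratio lay between -0.11 and -0.08. MTHFD2, the mitochondrial dehydrogenase and cyclohydrolase that many tumours express highly, read 3496.9, 3423.1, 3221.3 and 3309.1, with ratios from -0.12 to 0.04. On their brightest probe sets these folate enzymes were the members with the smallest differences. The dimmer probe set of MTHFD1, at 11.0 to 23.0, had a mean signal of 15.6, just above the filter. It read 11.0 and 13.8 without Pontin siRNA and 17.0 and 23.0 with it, so it passed only through the arrays where it was high. Its Pontin ratios of 0.63 and 0.74 reached 1.5-fold, but nothing is read from them for that reason. Its p53 ratios were 0.33 and 0.44. The dimmer probe set of MTHFD2, at 99.3 to 125.9, gave p53 ratios of -0.15 and -0.34 and Pontin ratios of 0.10 and -0.09.

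SHMT1, the cytosolic counterpart of SHMT2, was not kept. Its brighter single-symbol probe set read 8.8 in the control, 8.0 after p53 shRNA, 17.2 after Pontin siRNA and 16.7 after both, which would be a call with Pontin siRNA if no filter were applied. Its other probe set read 4.5, 10.0, 7.9 and 13.2 and ordered the arrays differently. MTHFD1L, the mitochondrial formate producer, had probe sets that disagreed in direction, one at 7.9, 11.6, 5.4 and 10.0 and one at 10.7, 2.5, 1.4 and 14.2. No difference is read from signals this low.

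**Figure D2:**
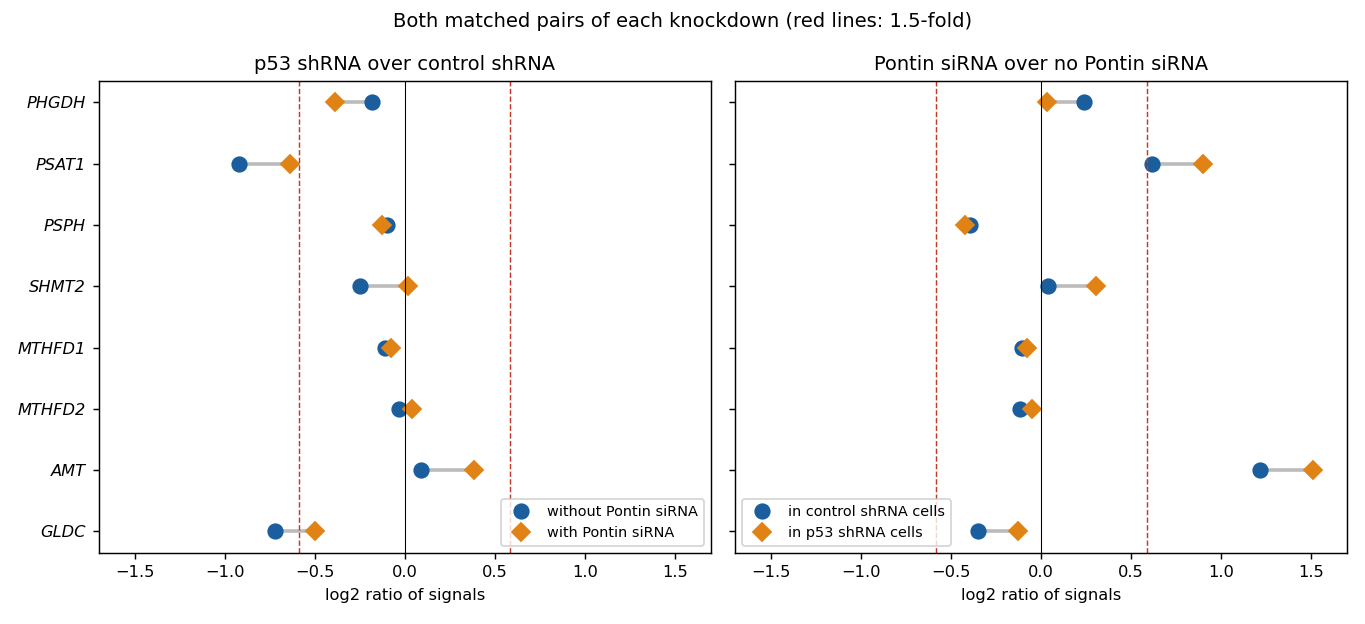
Log2 ratio of signals in both matched pairs of each knockdown for the 8 members kept, with circles for the pair without the other knockdown and diamonds for the pair with it; red lines mark 1.5-fold. PSAT1 lies outside the lines in all 4 pairs and on opposite sides for the knockdowns, GLDC has 1 p53 pair outside, and AMT lies outside in both Pontin pairs.

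With p53 shRNA, PSAT1 was the only member called, lower, and 0 were called higher. Among all genes kept 0.862% were called lower and 1.38% higher, among bright genes 0.413% and 0.22%, and among genes kept that were not bright 1.67% and 3.47%. PSAT1 was chosen on this contrast, so nothing is read from its call. Of the 8 members 5 were below 0 in both pairs, PHGDH, PSAT1, PSPH, MTHFD1 and GLDC, and AMT alone was above 0 in both. One of the 5, PSAT1, was chosen for being lower, and 32.2% of all genes kept and 36.6% of bright genes were below 0 in both p53 pairs. The median of the members' mean p53 ratio was -0.12, against -0.0024 over all genes kept.

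With Pontin siRNA, PSAT1 and AMT were called higher and 0 members lower. The share called higher was 1.16% of all genes kept, 0.181% of bright genes and 2.92% of genes that were not bright, and the shares called lower were 1.24%, 1.1% and 1.5%. Both called members were chosen on this contrast, and AMT passed the filter only through the arrays where it was high. Of the 8 members 4 were above 0 in both pairs, PHGDH, PSAT1, SHMT2 and AMT, and the other 4, PSPH, MTHFD1, MTHFD2 and GLDC, were below 0 in both. PSAT1 and AMT were chosen for being higher, and over all genes kept 33.9% were above and 32.0% below 0 in both Pontin pairs. The median mean ratio was 0.03, against 0.01 over all genes kept, and it was -0.08 over the 7 bright members.

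A limma fit that took both knockdowns as additive over the 4 arrays, with 1 residual degree of freedom, called 0 genes in either direction at an adjusted p of 0.05. In this limma fit the Benjamini-Hochberg adjusted p of PSAT1 was 0.398 with p53 shRNA and 0.337 with Pontin siRNA, values that support nothing, since PSAT1 was chosen on both contrasts. Among the members not chosen by their values, GLDC for p53 shRNA and PSPH for Pontin siRNA had an unadjusted limma p under 0.05, with adjusted p of 0.398 and 0.337. Among the 12066 genes kept this unadjusted count was 787 higher and 603 lower with p53 shRNA. With Pontin siRNA it was 848 higher and 889 lower. An unadjusted p this low was thus common, and nothing is read from it for GLDC or PSPH. The fit used the brightest probe set of PSPH, from which its other probe sets differed in control shRNA cells.

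**Figure D3:**
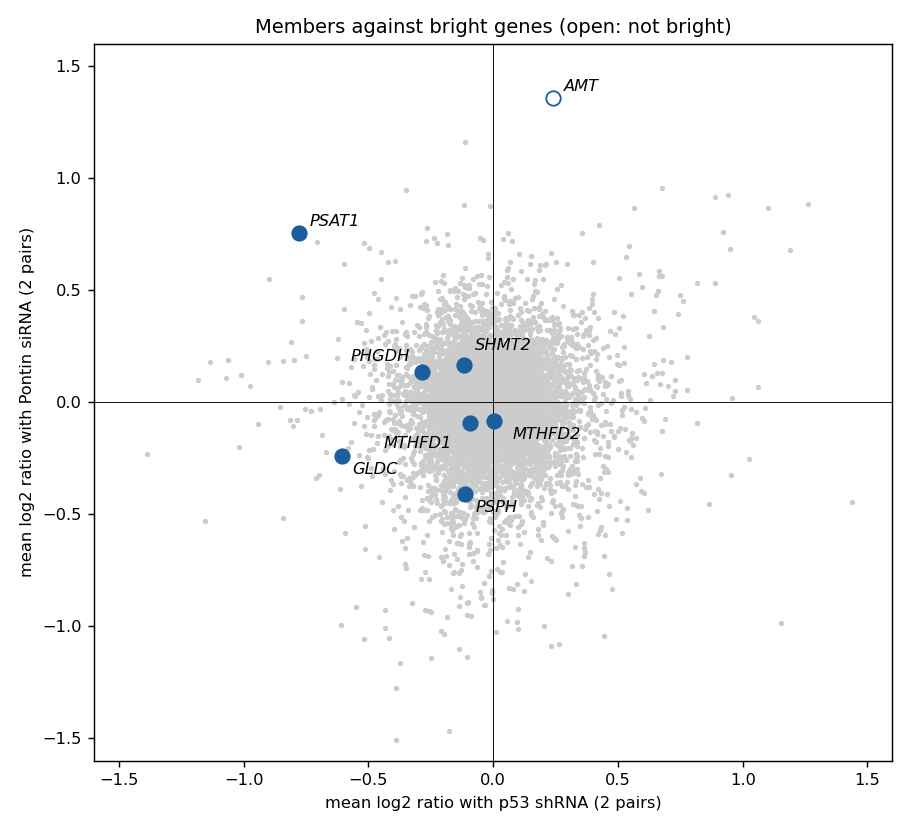
Mean log2 ratio with p53 shRNA against mean log2 ratio with Pontin siRNA for the 8 members kept (blue, open where not bright) and for bright genes (grey, with 6 of 7744 outside the axes). PSAT1 lies toward the upper left edge at -0.78 and 0.76, GLDC at -0.61 and -0.24, and most other members lie inside the grey cloud. AMT, the open point at 0.24 and 1.36, is not bright, so its place is not comparable with that cloud.

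The bright genes whose mean-centred log2 signals over the 4 arrays were nearest to those of PSAT1, by Euclidean distance among 7743 genes, were TGFBR3, CGA, ZMAT3, HIPK2, SLC46A3 and CSGALNACT1, at distances of 0.09 to 0.33 against a median of 1.11. TGFBR3, a co-receptor gene for TGF-beta, read 129.8, 74.0, 198.2 and 130.6 and was called in both contrasts like PSAT1. CGA, which encodes the alpha subunit of glycoprotein hormones, had signals of 427.2, 219.0, 597.2 and 335.9 and was called lower with p53 shRNA. SLC46A3, which encodes a lysosomal transporter, read 266.4, 154.0, 362.8 and 216.9 and was also called lower with p53 shRNA. HIPK2, a nuclear kinase gene, read 139.0, 94.8, 215.4 and 158.6 and was called higher with Pontin siRNA. The likeness of these genes to PSAT1 is what selected them.

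ZMAT3, which encodes a zinc finger RNA-binding protein, read 306.4, 178.0, 417.0 and 350.6, and all 5 of its probe sets were below 0 in both p53 pairs and above 0 in both Pontin pairs. CSGALNACT1, a chondroitin sulfate enzyme gene, read 142.4, 100.9, 234.1 and 144.4. Dimmer probe sets of TGFBR3, CGA, HIPK2 and CSGALNACT1 departed from this pattern. No member was among these genes. The nearest member was PHGDH, in place 435, followed by SHMT2 in place 759 and GLDC in place 2150, while PSPH was in place 6820.

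The related lists held 77 genes kept, and 0 were called for p53 shRNA. With Pontin siRNA 2 were called lower and 0 higher. The shares called over all genes kept were those given above. The calls were MAT2B, the regulatory subunit of methionine adenosyltransferase, and SPTLC1, a subunit of the enzyme that joins serine to a fatty acid to begin sphingolipid synthesis. SPTLC1 had signals of 2011.7 in the control, 2031.6 after p53 shRNA, 1190.0 after Pontin siRNA and 911.8 after both. Both arrays with Pontin siRNA were the lower ones, with log2 ratios of -0.76 and -1.16, and a second SPTLC1 probe set gave -0.56 and -0.94. MAT2B read 1529.9, 1774.9, 956.5 and 901.0, or -0.68 and -0.98. Its other probe set, at 5.0 to 16.8, gave 0.07 and -1.10, and with the mean over both MAT2B was no longer called.

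In the folate cycle and transport list, 7 of 12 genes kept were below 0 in both p53 pairs and 2 above, with a median of -0.14, where 32.2% of all genes kept were below and 30.6% above. Of these 12 genes 9 were bright, and over bright genes the shares were 36.6% and 30.1%. The folate receptor gene FOLR1 read 762.6, 944.9, 727.6 and 911.8, so both arrays with p53 shRNA were the higher ones, with ratios of 0.31 and 0.33. SLC19A1, the reduced folate carrier gene, was at -0.34 and -0.17 for p53 shRNA and 0.21 and 0.38 for Pontin siRNA on its brightest probe set, while its dimmer ones disagreed. SLC46A1, the proton-coupled folate transporter gene, was at -0.37 and -0.05 and at 0.07 and 0.39. FPGS, which adds glutamates to folate, was at 0.24 and -1.12 with p53 shRNA because its signal of 38.4 on the array with both knockdowns stood under the 77.7 to 91.6 of the others. MTFMT, which formylates the mitochondrial initiator tRNA, was at -0.16 and -0.41 with p53 shRNA.

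De novo purine synthesis, which consumes glycine and formyl-folate, had 5 of 8 genes below 0 in both p53 pairs, 2 above, and a median of -0.14, against the same 32.2% and 30.6% of all genes kept. Of these 8 genes 7 were bright, and over bright genes the shares were 36.6% and 30.1%. PFAS, an amidotransferase of the pathway, read 503.3, 381.6, 482.5 and 390.1, and PRPS1, which makes the ribose donor, read 1192.8, 997.6, 1304.4 and 966.4. For both genes the 2 arrays with p53 shRNA were the lower ones, at -0.40 and -0.31 for PFAS and at -0.26 and -0.43 for PRPS1. PRPS2 had the other sign, 0.41 and 0.12, at signals of 84.8 to 118.8. With Pontin siRNA the formyl-folate user ATIC was at 0.25 and 0.12 and PPAT, the committing enzyme, at 0.27 and 0.14.

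Amino acid response genes, known as ATF4 targets like PSAT1, had 14 of 29 genes below 0 in both p53 pairs and 7 above, a median of -0.07, and 0 calls. These counts stand against 32.2% and 30.6% of all genes kept. Of the 29 genes 26 were bright, and over bright genes the shares were 36.6% and 30.1%. AARS1, the alanyl-tRNA synthetase gene, was at -0.37 and -0.57 with p53 shRNA, and ASNS, the asparagine synthetase gene, at -0.41 and -0.33. VLDLR, a lipoprotein receptor gene, lay opposite at 0.67 and 0.58, and the second value falls just short of the threshold. SLC7A11, the cystine carrier gene, was at -0.52 and -0.17 with either knockdown. With Pontin siRNA the list was balanced, 12 genes above and 11 below 0 in both pairs, its median being 0.01. The proline enzyme gene ALDH18A1 was at 0.24 and 0.43, while ASNS was at -0.23 and -0.16 and DDIT3, a stress transcription factor gene, at -0.23 and -0.44, the other sign from PSAT1.

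In the methionine cycle and transsulfuration list, 9 of 12 genes kept were below 0 in both Pontin pairs and 1 above, with a median of -0.13, against 32.0% of all genes kept below 0 in both. Of these 12 genes 10 were bright, and 36.3% of bright genes were below 0 in both. The glutathione synthesis genes belonged to the 9, with GSS at -0.30 and -0.33, GCLM at -0.26 and -0.58 and GCLC at -0.07 and -0.20. With p53 shRNA the list had a median of -0.04. The methionine synthase reductase gene MTRR was at -0.20 and -0.10 there, GSS at -0.12 and -0.15, and AHCYL2, a relative of adenosylhomocysteinase, at 0.33 and 0.51 from signals of at most 62.8.

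Among genes of serine transport and use, 7 of 11 were below 0 and 4 above 0 in both Pontin pairs. Over all genes kept 32.0% were below and 33.9% above, and over bright genes 36.3% and 34.3%. All 11 of these genes were bright. SLC25A38, the mitochondrial glycine carrier gene, read 1009.7, 790.0, 796.0 and 609.3 and was lower in every pair, from -0.34 to -0.39. SFXN1, the mitochondrial serine carrier gene, was at 0.30 and 0.60 with Pontin siRNA on its brightest probe set and at 0.02 and 0.20 on another that read 982.2 to 1125.8. A dimmer SFXN1 probe set, at 51.7 to 66.2, gave -0.18 and -0.16. The phosphatidylserine synthase gene PTDSS1 was at -0.23 and -0.30 with p53 shRNA, and the neutral amino acid transporter gene SLC1A5 at -0.20 and -0.35. In the glycine cleavage and use list, GATM and AGXT had signals of at most 30.4, with p53 ratios of 0.40 and 0.74 for GATM and 0.85 and 0.15 for AGXT, and GCAT, a glycine acetyltransferase gene, lay between 231.6 and 261.2 on the 4 arrays.

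**Figure D4:**
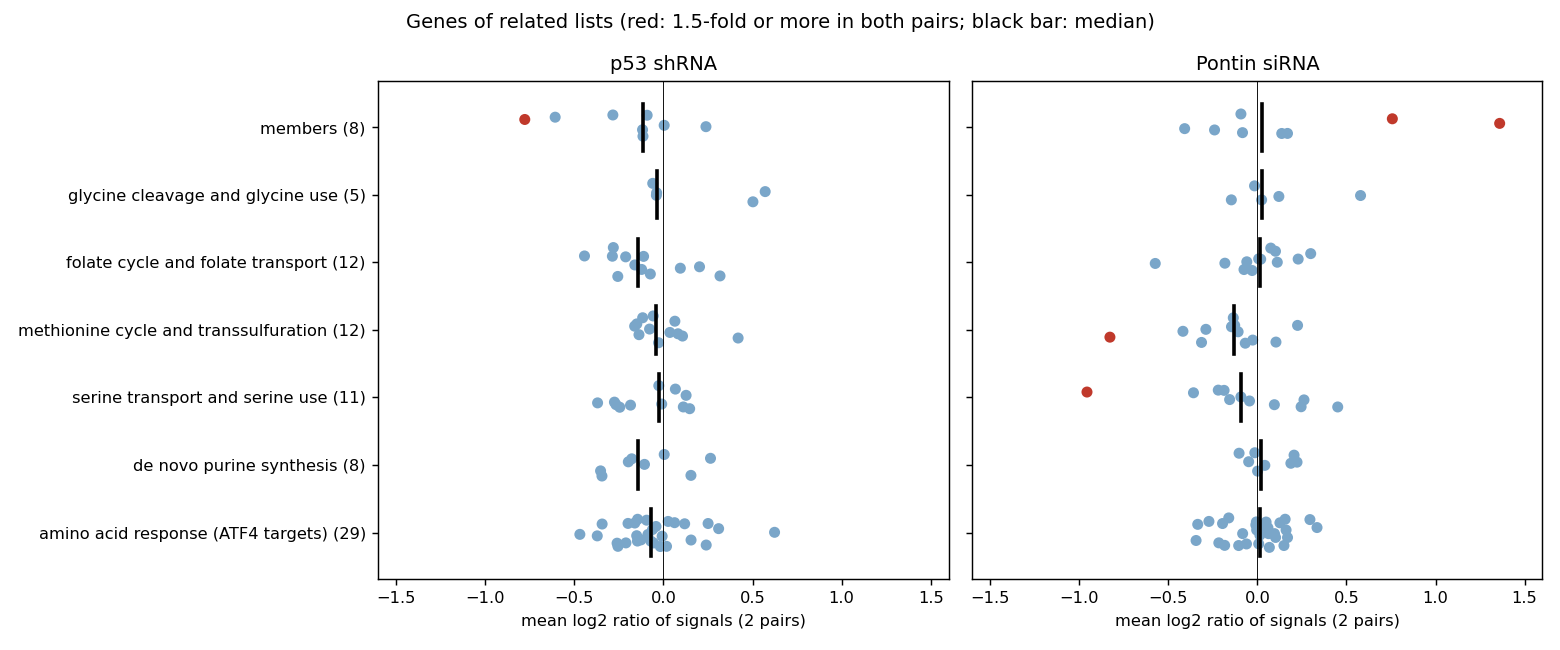
Mean log2 ratio of each gene kept in the members and 6 related lists, for p53 shRNA and for Pontin siRNA; red points reached 1.5-fold in both pairs, black bars are list medians, the number kept is in parentheses and vertical scatter carries no value. PSAT1 is the red point with p53 shRNA, PSAT1 and AMT are the red points to the right with Pontin siRNA, and MAT2B and SPTLC1 are those to the left.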

How the data were processed

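RNA from 4 SK-BR-3 cultures, 1 per group, was labelled from 200 ng of total RNA and measured on 1 array each with 54675 probe sets. The deposited values are linear MAS5 signal intensities, as the submitters' processing notes and the values show, and the version is not given in the sources used here. The authors had scaled the arrays: each had a mean of 150.0 without its lowest and highest 2%. The number of arrays limits the precision.

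The platform annotation gave the gene names: 41097 probe sets had 1 symbol, 1801 several and 11777 none listed. Of those with 1 symbol, 41043 were matched to RefSeq genes by Entrez identifier, which gave the symbol used. Signals were taken to log2 without a pseudocount, and 14 signals of 0 were set to 0.1. Named genes were the members, called genes and the 3 largest mean ratios per list and knockdown, the 6 bright genes nearest PSAT1, and RUVBL1. GCSH and the other probe sets of listed genes were added after their values were seen. Members and lists were chosen with earlier results of these data known. Calculations used Python 3.11.15, pandas 2.3.3, R 4.3.3 and limma 3.58.1. The calling rule was tested on simulated data. Alternatives covered scaling, a pseudocount of 16, probe set choice, filter, threshold and limma.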

Additional observations from a re-analysis of the deposited data

Results flagged for a closer look

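Opposite signs in the 2 pairs of a knockdown marked 2 members. The p53 log2 ratio of SHMT2 was -0.25 without and 0.02 with Pontin siRNA, and that of MTHFD2 was -0.03 and 0.04. With 1 array per group, neither difference between pairs was tested.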

How the results depend on the processing

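PSAT1 kept its direction and calls for both knockdowns under the 7 scaling, pseudocount, probe set and filter alternatives that could give it a value, with mean ratios from -0.78 to -0.75 for p53 shRNA and 0.74 to 0.78 for Pontin siRNA, and AMT kept its call under the 7 such alternatives that could give it a value, at 0.72 to 1.36. Both lost their calls in the limma additive fit, and PSAT1 lost them at 2-fold. As both were chosen for these differences, and AMT was kept only through the arrays where it was high, the kept calls add no support. Without _x_at and _s_at probe sets PSAT1 had no value, so 0 members were called lower with p53 shRNA and 1 higher with Pontin siRNA, and AMT had none with the filter at the 75th percentile, which left 1 higher. At 1.3-fold the calls were 2 lower with p53 shRNA and, with Pontin siRNA, 1 lower, at 2-fold 0 lower for p53 shRNA and 1 higher for Pontin siRNA, and in the limma additive fit 0 and 0. Without the array with both knockdowns, an alternative chosen after seeing the data, a call rested on 1 pair alone, a laxer rule. GLDC and PSAT1 were then the 2 called lower with p53 shRNA. The share of all genes kept that was called this way, at 1.3-fold or at 2-fold was not computed. Nothing is therefore read from the member counts in these settings. The related lists gained 1 call higher with p53 shRNA under quantile, cyclic loess, median centring and no filter, 2 at 1.3-fold, and 2 higher and 1 lower without that array. With Pontin siRNA they gained 1 higher without _x_at and _s_at probe sets, with no filter and at 1.3-fold, and held 1 lower without those probe sets, 0 at 2-fold and 0 in the limma fit. With the mean over probe sets the members' median was -0.21 for p53 shRNA and 0.17 for Pontin siRNA. The Pontin median was -0.084 without _x_at and _s_at probe sets and with the filter at the 75th percentile, and -0.037 without the array with both knockdowns, so its sign is not settled. MTHFD1 had mean ratios of 0.14 and 0.30 with the mean over probe sets, above 0, because its dim probe set then counts equally. Over all genes kept, calls higher were 61.6% of calls for p53 shRNA as deposited and 48.3% after quantile normalization, and 48.3% and 28.5% for Pontin siRNA. With a pseudocount of 16 the calls were 55 higher and 56 lower for p53 shRNA and 34 and 104 for Pontin siRNA. The labels give no replicate numbers to use as a block. The matched pairs and the additive fit already compare each knockdown at the same assigned treatment for the other. RUVBL1 signal still differed between the 2 arrays with Pontin siRNA. The members of low signal, AMT, SHMT1 and MTHFD1L, are those whose values the array limits most.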
